A study of Mus musculus with 10 samples.

Results

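Transcripts of 35 lysosome genes were followed in mouse macrophages of the pancreas and of pancreatic tumours. They were 10 hydrolases, the hydrolase activator gene Psap, 8 membrane proteins, the transcription factor gene Tfeb and 15 genes of the vacuolar proton pump (V-ATPase). The genes were chosen by name, and all 35 were among the 12535 genes of the deposited table and among the 11127 that passed the filter on low values (3 or more libraries with an FPKM of 1 or higher). FPKM are fragments per kilobase of gene, scaled to library size, so levels can be set side by side between genes of a library; between libraries they also depend on a scaling that is not given in the sources used here, and counts that turn with it are given with another scaling beside them. The 10 libraries fell into 3 groups. Resident macrophages (n = 4) were sorted from the pancreas of healthy C57/BL6 WT mice. Tumour-associated macrophages (TAM) came from orthotopic PDAC tumours (pancreatic ductal adenocarcinoma) taken 14 days after cells of MT4, a KPC organoid line, had been placed in the pancreas. Control TAM (n = 3) came from C57/BL6 Ahr fl/fl mice, which carry floxed alleles of the aryl hydrocarbon receptor gene and no listed Cre. cKO-labelled TAM (n = 3) came from C57/BL6 Ahr fl/fl Lys M mice, where Lys M stands for a Cre at Lyz2 that deletes floxed alleles in macrophages, neutrophils and other myeloid cells. All groups were sorted as CD45+CD11b+F4/80+ cells. Resident and control TAM thus differ in genotype as well as in tissue, and these cannot be told apart. All tumours grew from 1 organoid line, and the labels give no age of the mice and do not say whether animals were pooled.

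Lysosomes are acidic compartments in which macrophages break down what they engulf. The V-ATPase acidifies them: its membrane-bound V0 sector carries protons across the membrane, and its V1 sector on the cytosolic side hydrolyses ATP to drive it. Soluble hydrolases then cut glycans, lipids and proteins, heavily glycosylated proteins such as LAMP1 and LAMP2 line the membrane, and transporters and channels export the products. TFEB and its relatives switch on many of these genes through the CLEAR element, whose core is the E-box CACGTG.

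The sequences before the start sites of the members were searched for that core, because it is the element through which TFEB is known to act. RefSeq promoters (GRCm38.p6) were found for 28 of the 35 members, 34 promoters in all, and the 250 bases before each start were read. CACGTG, which reads the same on both strands, was present in 7 of the 34 promoters (20.6%), against 6.02% of all 32851 promoters of that length and 8.36% of those of genes tested. The longer TCACGTGA, which contains it and also reads the same on both strands, was present in 3 (8.82%, against 0.785% of all and 1.55% of those of genes tested). A still longer form, with a G added before TCACGTGA and a C after it, was also searched for. It was present in 0 of the 34 promoters, against 0.24% of all and 0.564% of those of genes tested. At shares this low, 34 promoters are too few to show a difference for this form. A match is only a match of letters in this window. The 7 genes were Lamp1, Atp6v0b, Glb1, Gaa, Mcoln1, Atp6v1a and Gla. Lamp1 held 4 copies, whose first bases lay at -61, -45, -28 and -15 from the start, Atp6v0b held 2 (-36 and -18) and Glb1 held 1 (-48). These windows are printed to show how the copies are spaced, with CACGTG in capitals, from chr8:13158911-13159160 (plus strand) for Lamp1, chr4:117887330-117887579 (minus strand) for Atp6v0b and chr9:114400828-114401077 (plus strand) for Glb1.
Lamp1: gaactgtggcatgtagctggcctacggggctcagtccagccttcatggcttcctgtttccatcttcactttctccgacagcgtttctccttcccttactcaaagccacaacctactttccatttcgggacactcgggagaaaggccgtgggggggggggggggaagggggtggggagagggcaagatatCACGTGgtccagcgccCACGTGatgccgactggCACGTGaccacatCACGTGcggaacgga
Atp6v0b: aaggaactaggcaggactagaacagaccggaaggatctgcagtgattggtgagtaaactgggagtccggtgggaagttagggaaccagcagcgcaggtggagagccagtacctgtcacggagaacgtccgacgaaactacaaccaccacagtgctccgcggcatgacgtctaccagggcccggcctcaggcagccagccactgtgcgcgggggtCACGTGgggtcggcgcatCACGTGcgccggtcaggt
Glb1: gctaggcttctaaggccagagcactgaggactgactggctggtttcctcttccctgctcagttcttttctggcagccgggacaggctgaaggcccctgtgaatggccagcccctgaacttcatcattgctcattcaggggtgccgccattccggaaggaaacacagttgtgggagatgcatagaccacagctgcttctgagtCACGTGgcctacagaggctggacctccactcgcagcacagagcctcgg
TCACGTGA was found in the windows of the cation channel gene Mcoln1 (first base at -46), the V1 subunit gene Atp6v1a (-132) and the alpha-galactosidase gene Gla (-228 and -195, the latter shown), counted from the RefSeq starts. The gene models of GENCODE M21, used for gene positions below, start further upstream for Mcoln1 (base 3500457) and Atp6v1a (base 44139705), so these 2 sites lie inside those models. These 30 bases around it, with TCACGTGA in capitals, are chr8:3500462-3500491 (plus strand), chr16:44139373-44139402 (minus strand) and chrX:134601182-134601211 (minus strand).
Mcoln1: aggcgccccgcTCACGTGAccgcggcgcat
Atp6v1a: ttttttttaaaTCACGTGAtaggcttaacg
Gla: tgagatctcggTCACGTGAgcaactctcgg
The transcripts of these genes did not move in 1 direction. As given below, Gla rose in control TAM against resident macrophages by more than any other member, and Glb1 and Atp6v1a rose, while Mcoln1 and Atp6v0b fell. Gaa was not called (adjusted p = 0.147), and the signs for Gaa and Lamp1 turned with the scaling of the libraries.

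From 10311266 to 26455618 reads could be recovered per library. The libraries held all 10 genes of the macrophage list, with Adgre1 (F4/80) at 706 ± 14.9 FPKM (SD, n = 4) in resident macrophages, 590 ± 2.78 (n = 3) in control and 497 ± 7.72 (n = 3) in cKO-labelled TAM. Lyz2 itself stood at 28140 ± 476.5, 19904 ± 85.1 and 11460 ± 203 FPKM. Below, values given in a row keep this order of groups. Of the 10 genes, 5 were called higher and 5 lower in each TAM group against resident. Itgam (CD11b) was at 31.4 ± 0.995, 75.9 ± 5.23 and 59.7 ± 3.33 FPKM, Fcgr1 at 46.4 ± 1.48, 119 ± 2.05 and 124 ± 1.41 and Csf1r at 1238 ± 6.40, 534 ± 7.65 and 454 ± 6.90; Ptprc, Cd68 and Aif1 were also higher and Mertk and Cd14 also lower. In cKO-labelled against control TAM 1 rose and 6 fell. Ahr was at 4.19 ± 0.261, 7.18 ± 0.309 and 10.4 ± 0.785 FPKM, so it was higher, not lower, in the libraries labelled cKO; a value summed over the whole gene does not check the deletion, since exons that are not floxed add to it. Genes of other cell types were present too. The 12 acinar genes summed to 28127 to 30007, 84.6 to 91.3 and 338 to 354 FPKM, with Amy2a5 at 0 in every control TAM library. The 9 neutrophil genes in the table summed to 33.5 to 35.1, 1244 to 1271 and 1500 to 1662 FPKM, most of it Retnlg in TAM (0.332 ± 0.245, 1166 ± 14.9 and 1420 ± 78.1). Some other genes of the list changed more between the TAM groups, with S100a8 at 25.05 ± 0.887 and 48.6 ± 3.18 FPKM and S100a9 at 25.4 ± 3.21 and 57.04 ± 3.44 in control and cKO-labelled TAM. Of the 8 neutrophil genes tested, 6 were called higher in cKO-labelled against control TAM and 0 lower (20.5% and 19.1% of all genes). Mmp8, at 3.93 ± 0.129 and 3.38 ± 0.334 FPKM, and Camp were not called (adjusted p = 0.132 and 0.282). The 5 eosinophil genes summed to 45.7 to 59.5, 88.7 to 91.7 and 132 to 133 FPKM, but most of the resident sum was Ear2 (50.7 ± 6.80, 14.95 ± 0.348 and 28.5 ± 1.20). The other 4 rose in control TAM, among them Siglecf (0.494 ± 0.164, 15.3 ± 1.03 and 26.95 ± 0.659) and Prg2, which was at 0 in every resident library and at 34.4 ± 0.792 and 35 ± 3.10 FPKM in TAM. The 5 B cell genes summed to 897 to 916, 85.8 to 94.7 and 241 to 244 FPKM, most of it Ighm (854 ± 7.55, 83.1 ± 4.18 and 220 ± 2.16). The 8 epithelial genes summed to 8.90 to 10.5, 269 to 277 and 272 to 284 FPKM and the 7 fibroblast genes to 37.4 to 41.0, 161 to 164 and 121 to 125. The fibroblast genes split between the TAM groups, with Dcn and Col1a2 called lower and Col1a1 and Lum higher in cKO-labelled TAM. The 5 dendritic cell genes summed to 118 to 132, 21.9 to 23.2 and 48.3 to 49.6 FPKM, most of it Cd209a (118.5 ± 6.03, 17.7 ± 0.739 and 43.65 ± 0.788). Of the 4 tested, Cd209a and Zbtb46 were called lower in control TAM against resident and Dpp4 higher (1.08 ± 0.0986 and 2.33 ± 0.0530 FPKM), and Flt3 was not called. The 8 T and NK cell genes summed to 8.69 to 9.88, 14.5 to 16.8 and 19.99 to 21.7 FPKM. The part of these cells in the results below was not tested, and in bulk samples fewer cells of a type and less RNA per cell cannot be told apart.

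Lysosome transcripts were abundant in all 3 groups, and libraries of a group lay close together (median coefficient of variation over the members 2.65%, 2.24% and 2.98%). The most abundant member was Psap, which encodes the precursor of the saposins that present lipids to hydrolases, at 1356 ± 29.7, 1641 ± 22.7 and 1557 ± 10.8 FPKM. Laptm5, a lysosomal membrane protein of blood cells, was next in both TAM groups, at 870 ± 31.6, 1035 ± 22.5 and 944 ± 16.3. In resident macrophages the mean of Hexa (880 ± 8.52 FPKM) was slightly above it. Atp6v0d2 was the least abundant in resident and control TAM, at 1.55 ± 0.272, 3.37 ± 0.585 and 7.62 ± 0.656 FPKM, where the thinnest library held about 39 reads. In cKO-labelled TAM the lowest mean was that of Npc1 (6.16 ± 0.365 FPKM). Summed over the 35 members, the level was 7840 to 7921, 7452 to 7533 and 7308 to 7437 FPKM as deposited. This order depends on the scaling, because whole libraries summed to 529066 to 544670, 459374 to 463004 and 482447 to 493850 FPKM. Set against these totals, the mean level of the 35 members was no longer highest in resident macrophages. The 10 hydrolases summed to 2348 to 2388, 1681 to 1696 and 1678 to 1699 FPKM, which is lower in every TAM library than in every resident library. Most of that difference lay in Hexa (880 ± 8.52, 405 ± 4.78 and 480 ± 4.97) and Man2b1 (484 ± 7.43, 277 ± 5.34 and 279 ± 5.52). It was not a general fall, since 4 of the 10 rose and 4 fell in control TAM. The 15 V-ATPase genes summed to 1793 to 1820, 1759 to 1793 and 1873 to 1919 FPKM as deposited. Set against the library totals, their sum was lowest in resident macrophages. In the plot of levels in every library, points of 1 group mostly fall on top of each other.

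**Figure D1:**
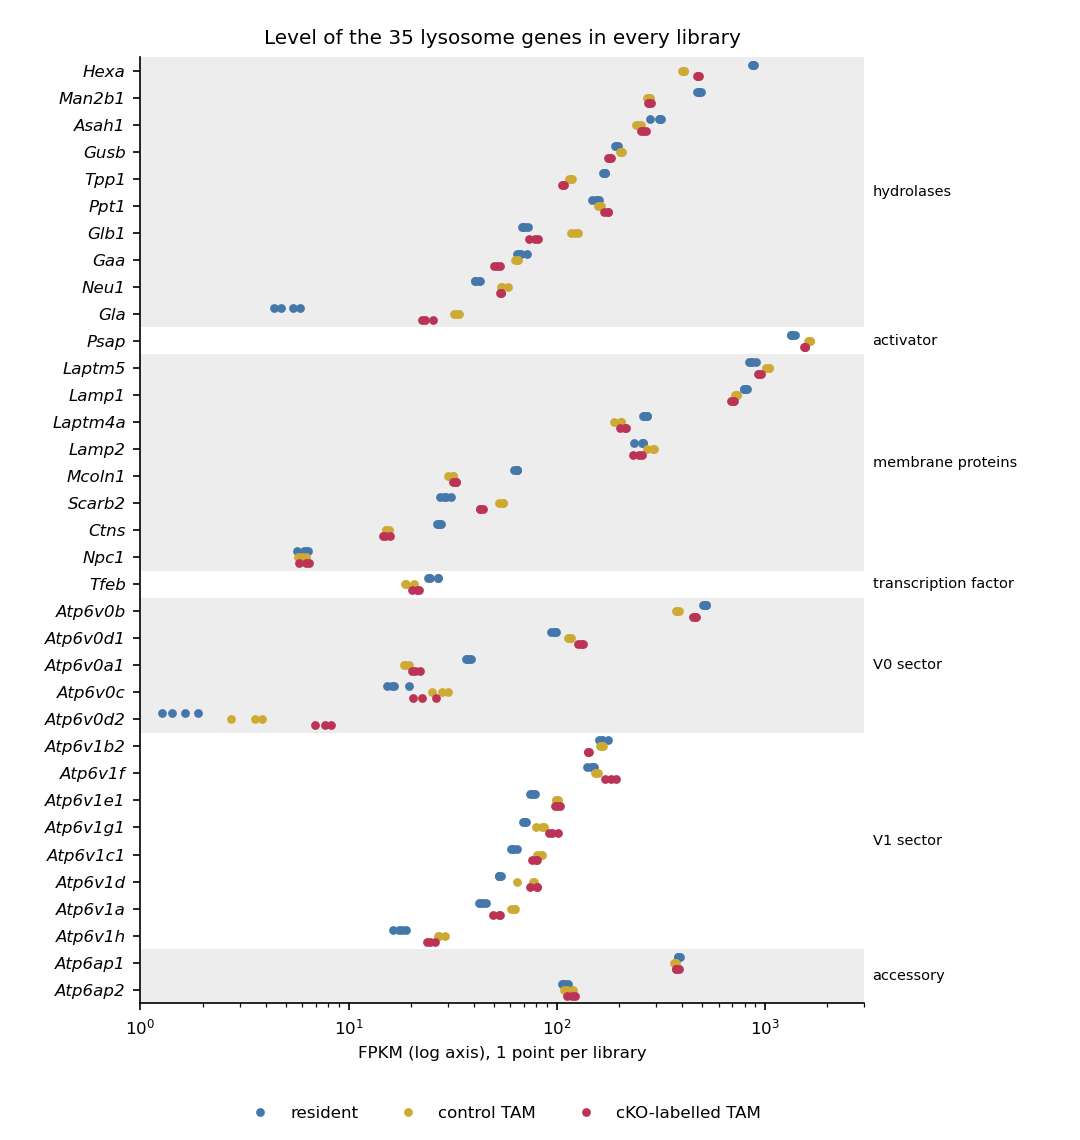
Level of each of the 35 genes in FPKM (horizontal log axis), 1 point per library, with resident (n = 4), control TAM (n = 3) and cKO-labelled TAM (n = 3) in separate colours and genes grouped by role. Levels run from 1.27 FPKM for Atp6v0d2 in a resident library to 1659 for Psap in a control TAM library, and Gla, Hexa, Mcoln1 and Atp6v0d2 show the widest gaps between the groups.

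The first comparison, control TAM against resident macrophages, asked how lysosome transcripts differ between tumour and healthy pancreas. The set did not move as a block. Of the 35 members, 17 rose and 12 fell (limma adjusted p under 0.05), and 6 did not pass the test. Of all 11127 genes tested, 77.1% passed (39.0% higher, 38.1% lower), so the members' count is near that of all genes. With a change of at least 1.5-fold added, 6 members rose and 5 fell (34.3% of all genes passed that rule, 18.6% higher and 15.7% lower). The groups did not overlap for 30 members (73.9% of all genes). The median log2 change was 0.08 over the members and 0.00 over all genes, and the median size of change was 0.42 and 0.39. Log2 changes are of FPKM + 1, which understates changes of low genes. The p-values measure the spread between these libraries, which may in part be technical.

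Among the hydrolases, 4 of 10 rose and 4 fell, a split that depended on the scaling, with 6 and 3 on rescaling to a common total and 3 and 5 under quantile normalization. Gla (chromosome X, 134588149 to 134601125, minus strand, in GRCm38 and GENCODE M21, as for all positions below), the alpha-galactosidase lost in Fabry disease, was at 5.86, 4.74, 4.41 and 5.39 FPKM in the resident libraries and at 33.9, 32.0 and 33.2 in control TAM. Every control TAM library was above every resident one, by 6.48-fold in the means (log2 change 2.49 ± 0.07 SE, adjusted p = 2.54e-14). Glb1 (chromosome 9, 114401076 to 114474898, plus strand), the beta-galactosidase used as a stain for senescent cells, was at 68.5, 70.6, 72.5 and 69.3 FPKM in resident and 118, 127 and 122 in control TAM libraries. The groups were again apart, with a log2 change of 0.79 ± 0.04 (adjusted p = 3.00e-11). Tmppe, whose exons overlap Glb1 on the same strand, was at 5.36 ± 0.264 and 4.76 ± 0.448 FPKM. The sialidase gene Neu1 rose from 41.5 ± 1.19 to 55.7 ± 2.24 FPKM. Gusb, the beta-glucuronidase, rose by a log2 change of only 0.08 (adjusted p = 0.0206), with an opposite sign under quantile normalization (-0.04) and a call lost without control TAM replicate 1 or 2 (adjusted p = 0.0718 and 0.0522), with median-of-ratios scaling (0.0953) or without a variance trend (0.0993).

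The hydrolases that fell were abundant ones. Hexa (chromosome 9, 59539540 to 59565109, plus strand), the alpha chain of beta-hexosaminidase A, which is lost in Tay-Sachs disease, was at 889, 880, 881 and 868 FPKM in resident and 407, 408 and 399 in control TAM libraries. All 3 control TAM libraries lay below all resident ones, and the log2 change was -1.12 ± 0.02 (adjusted p = 4.45e-16). The alpha-mannosidase gene Man2b1 fell from 484 ± 7.43 to 277 ± 5.34 FPKM. Tpp1, a tripeptidyl peptidase, fell from 169 ± 1.65 to 117 ± 2.26, and the acid ceramidase gene Asah1 from 306 ± 17.2 to 248 ± 6.999, a call lost when every library was rescaled to the same total (adjusted p = 0.0753). Gaa, the acid alpha-glucosidase, was at 67.6 ± 3.46 and 64.3 ± 1.33 FPKM (adjusted p = 0.147), and Ppt1, the palmitoyl-protein thioesterase, at 154 ± 4.99 and 161 ± 2.26 (adjusted p = 0.110). Psap rose by a log2 change of 0.28 ± 0.02 (adjusted p = 4.37e-08).

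Of the 8 membrane proteins 3 rose and 4 fell, against 5 and 3 on rescaling and 3 and 3 under quantile normalization. Scarb2 (chromosome 5, 92441314 to 92506833, minus strand) encodes LIMP-2, which carries glucocerebrosidase to the lysosome. It was at 27.5, 28.7, 30.98 and 29.5 FPKM in resident and 53.1, 55.4 and 55.1 in control TAM libraries, with no overlap (log2 change 0.88 ± 0.04, adjusted p = 1.76e-11). Mcoln1 (chromosome 8, 3500457 to 3515232, plus strand) encodes the calcium-releasing channel TRPML1. It was at 64.5, 64.6, 62.2 and 64.3 FPKM in resident and 30.1, 31.6 and 31.9 in control TAM libraries, lower in all of the latter (log2 change -1.01 ± 0.04, adjusted p = 5.08e-13). Ctns (chromosome 11, 73183596 to 73199042, minus strand), the cystine exporter, fell from 27.3 ± 0.473 to 15.3 ± 0.333 FPKM, and Laptm4a, a small membrane protein of endosomes and lysosomes, from 267 ± 6.30 to 199 ± 9.39. Laptm5 rose by a log2 change of 0.25 and Lamp2 by 0.17, the latter not called under quantile normalization (adjusted p = 0.103). Lamp1 fell from 806 ± 13.4 to 732 ± 9.05 FPKM (log2 change -0.14 ± 0.02, adjusted p = 9.87e-05), but its sign turned when libraries were rescaled to the same total (0.07) or quantile normalized (0.09). Npc1, the cholesterol exporter, was at 6.09 ± 0.317 and 5.98 ± 0.294 FPKM (adjusted p = 0.771). Tfeb itself was lower in control TAM, at 27.0, 24.7, 24.1 and 26.9 FPKM in resident and 18.9, 20.8 and 18.7 in control TAM libraries, again with no overlap (log2 change -0.38 ± 0.05, adjusted p = 1.01e-05).

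Of the 15 proton pump genes 9 rose and 3 fell in control TAM, where 39.0% of all genes rose and 38.1% fell, and their median log2 change was 0.26 against 0.00 over all genes. On rescaling 13 rose and 2 fell, with a median log2 change of 0.47 against 0.18 over all genes. Under quantile normalization 9 rose and 4 fell, with medians of 0.20 and -0.03. The difference from all genes was not tested. In the ATP-hydrolysing V1 sector 6 of 8 rose and 0 fell. Under quantile normalization 6 rose and 1 (Atp6v1b2) fell, and on rescaling to a common total all 8 rose. The regulatory subunit gene Atp6v1h rose from 17.7 ± 1.04 to 27.7 ± 1.15 FPKM (log2 change 0.62 ± 0.05) and the catalytic subunit gene Atp6v1a from 44.0 ± 1.41 to 62.0 ± 1.17 (0.49 ± 0.04). The stalk subunit genes Atp6v1d, Atp6v1c1, Atp6v1e1 and Atp6v1g1 rose by log2 changes of 0.26 to 0.44. Atp6v1b2, a nucleotide-binding subunit, was at 167 ± 7.26 and 165 ± 2.65 FPKM (adjusted p = 0.644), and Atp6v1f at 147 ± 5.18 and 155 ± 2.45 (adjusted p = 0.0937).

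The V0 sector split, with 3 of 5 risen and 2 fallen. Atp6v0a1 (chromosome 11, 101009452 to 101063719, plus strand), an isoform of the large a subunit, was at 36.7, 37.7, 38.8 and 37.0 FPKM in resident and 18.5, 18.6 and 19.4 in control TAM libraries. It was lower in all 3 of the latter (log2 change -0.96 ± 0.04, adjusted p = 8.97e-12). Atp6v0b (chromosome 4, 117884326 to 117887333, minus strand), a subunit of the proton-carrying ring, was at 522, 520, 503 and 519 FPKM in resident and 377, 386 and 379 in control TAM libraries, also lower in all (log2 change -0.44 ± 0.03, adjusted p = 2.27e-10). Atp6v0c, the main ring subunit, rose from 16.8 ± 1.82 to 27.9 ± 2.45 FPKM; the annotation lists pseudogenes of this gene (Atp6v0c-ps1 and Atp6v0c-ps2), which could share its reads, so its level is uncertain. Atp6v0d1, the widely expressed d subunit, rose from 97.0 ± 2.29 to 116 ± 2.07, and its isoform Atp6v0d2 (chromosome 4, 19876841 to 19922605, minus strand) rose by a log2 change of 0.77 ± 0.10 (adjusted p = 4.40e-06). Of the accessory proteins, Atp6ap2 was at 109 ± 3.60 and 114 ± 5.92 FPKM (adjusted p = 0.222). Atp6ap1 was called lower (log2 change -0.06, adjusted p = 0.0366), but higher on rescaling (0.15) and not called without any 1 of resident replicates 2 and 4 and control TAM replicates 1, 2 and 3 (adjusted p = 0.0517 to 0.0970).

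Deposited FPKM of the resident libraries were scaled so that the reads recovered from the table came to 1.11 to 1.13 times the implied library size, against 1.02 in control TAM and 1.03 to 1.04 in cKO-labelled TAM. Rescaling each library to the same total moved the median log2 change of all genes in this comparison from 0.00 to 0.18, and then 25 members were higher and 9 lower.

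The second comparison, cKO-labelled against control TAM, asked what changes in tumour macrophages of the mice labelled as lacking the receptor in myeloid cells. Of the 35 members 8 rose, 13 fell and 14 did not pass the test, where 39.6% of all genes passed (20.5% higher, 19.1% lower). Changes were small: only Atp6v0d2 rose and only Glb1 fell by at least 1.5-fold (4.31% of all genes, 2.72% higher and 1.59% lower). The groups did not overlap for 23 members (51.4% of all genes). The median log2 change was 0.01 over the members and 0.01 over all genes. On rescaling to a common total, 4 members were higher and 16 lower, and the median log2 change of all genes moved to -0.05.

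Of the 10 hydrolases 5 fell and 2 rose in cKO-labelled TAM, where 19.1% of all genes fell and 20.5% rose (6 fell and 1 rose on rescaling). The difference from all genes was not tested. Glb1 was at 81.0, 79.1 and 73.6 FPKM in the cKO-labelled libraries, below all control TAM libraries (log2 change -0.64 ± 0.04, adjusted p = 1.52e-08). Its mean of 77.9 ± 3.86 FPKM was still above that of resident macrophages (70.2 ± 1.75, adjusted p = 0.00351), a difference not called under quantile normalization (adjusted p = 0.243). Gla was at 22.5, 23.3 and 25.4 FPKM, between the other groups and apart from both (log2 change -0.46 ± 0.08, adjusted p = 2.57e-04). Gaa fell from 64.3 ± 1.33 to 51.6 ± 1.79 FPKM (log2 change -0.31 ± 0.05, adjusted p = 6.74e-05), and Gusb and Tpp1 fell by 0.19 and 0.12 on the log2 scale. Hexa moved the other way, at 481, 485 and 475 FPKM, above every control TAM library and below every resident one (log2 change 0.25 ± 0.03, adjusted p = 2.60e-06). Ppt1 rose by 0.11 (adjusted p = 0.0179), a call lost on rescaling (adjusted p = 0.488), without a variance trend (0.0777) and without any 1 of control TAM replicate 2 and cKO-labelled replicates 2 and 3 (0.0595 to 0.0741). Man2b1, Neu1 and Asah1 were not called, with log2 changes of 0.01, -0.05 and 0.08; Asah1 was called higher without resident replicate 1 (adjusted p = 0.0439), which enters the fit through its variance.

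Psap and 3 of the 8 membrane proteins fell, and no membrane protein rose, where 19.1% of all genes fell and 20.5% rose. These counts were not tested against all genes. Scarb2 was at 42.9, 44.2 and 43.0 FPKM in the cKO-labelled libraries, below every control TAM library (log2 change -0.32 ± 0.05, adjusted p = 5.10e-05). Lamp2 fell from 285 ± 12.3 to 246 ± 12.1 FPKM, against a resident range of 235 to 260.4 (adjusted p against resident = 0.439), and Laptm5 fell by a log2 change of -0.13 (adjusted p = 0.00439). Psap fell by a log2 change of -0.08 (adjusted p = 0.0334), a call lost with the replicate number as a block (0.0586), without a variance trend (0.186), and without any 1 of control TAM replicates 2 and 3 and cKO-labelled replicates 1, 2 and 3 (0.0553 to 0.102). Mcoln1, at 32.9, 32.9 and 31.7 FPKM, and Ctns, at 14.7, 15.8 and 14.96, lay at the level of control TAM (log2 change 0.06, 95% interval -0.03 to 0.14, and -0.01, interval -0.11 to 0.09). Lamp1, at 703 ± 10.4 FPKM, was not called (adjusted p = 0.107), but was called lower on rescaling (adjusted p = 3.98e-04) and with median-of-ratios scaling (0.0451). Laptm4a and Npc1 were not called (log2 changes 0.08 and 0.04), nor was Tfeb, at 21.8, 20.1 and 21.4 FPKM (log2 change 0.11, interval -0.01 to 0.24).

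Of the 15 proton pump genes 6 rose and 4 fell, where 20.5% of all genes rose and 19.1% fell. On rescaling 3 rose and 5 fell. In the V0 sector 4 of 5 rose (2 on rescaling). Atp6v0d2 had the largest change of any member. It was at 1.89, 1.64, 1.27 and 1.42 FPKM in resident, 3.86, 2.72 and 3.54 in control TAM and 6.92, 8.22 and 7.72 in cKO-labelled libraries. The 3 groups did not overlap, and the mean was 2.26-fold that of control TAM (log2 change 0.98 ± 0.11, adjusted p = 5.13e-06). Atp6v0d2 is best known from osteoclasts, so a list of 7 osteoclast genes is given beside it. Oscar and Calcr were not among the genes of the deposited table. The 5 tested genes all rose in cKO-labelled against control TAM, where 20.5% of all genes rose. Mmp9 was at 41.5 ± 0.324 and 123 ± 4.28 FPKM, Acp5 at 53.4 ± 3.89 and 99.9 ± 2.25 and Ctsk at 8.23 ± 1.52 and 96.0 ± 1.71 in control and cKO-labelled TAM. Ocstamp was at 3.75 ± 0.229 and 4.71 ± 0.142 and Dcstamp at 0.647 ± 0.220 and 1.91 ± 0.241. In resident libraries Mmp9 stood at 329 ± 3.73 FPKM and Ctsk at 0.636 ± 0.0594. The part of such cells in the change of Atp6v0d2 was not tested.

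Atp6v0b rose from 380.5 ± 5.09 to 459 ± 6.59 FPKM (log2 change 0.27 ± 0.03, adjusted p = 2.03e-06), with all cKO-labelled libraries (465, 461 and 452) above control TAM and below resident. Atp6v0d1 rose to 130.2 ± 3.59 FPKM, above both other groups (log2 change 0.17 ± 0.04, adjusted p = 0.00134), though not past the threshold on rescaling (0.0690). Atp6v0a1 rose from 18.9 ± 0.517 to 21.0 ± 0.938 FPKM (adjusted p = 0.0206), a call lost on rescaling (0.261) and without any 1 of control TAM replicates 1 and 2 and cKO-labelled replicates 1 and 2 (0.0529 to 0.0895). Atp6v0c was called lower (adjusted p = 0.0310) although its groups overlapped, and the call was lost without a variance trend (0.0625) and without any 1 of control TAM replicates 1 and 2 and cKO-labelled replicates 2 and 3 (0.0762 to 0.149).

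In the V1 sector 2 of 8 rose and 3 fell (20.5% and 19.1% of all genes). Atp6v1a was at 49.3, 53.2 and 53.5 FPKM in cKO-labelled libraries, below control TAM (62.8, 60.7 and 62.6) and above resident (log2 change -0.25 ± 0.04, adjusted p = 2.96e-04). Atp6v1b2 fell to 142 ± 0.991 FPKM, below both other groups (log2 change -0.21 ± 0.04, adjusted p = 3.45e-04). Atp6v1h fell by 0.15 on the log2 scale (adjusted p = 0.0443), a call lost with the replicate number as a block (0.0530), without a variance trend (0.0670) and without any 1 of 6 libraries, resident replicates 2 and 4, control TAM replicates 1 and 3 and cKO-labelled replicates 1 and 2 (0.0529 to 0.163). Atp6v1f rose to 182 ± 10.5 FPKM (log2 change 0.23 ± 0.04, adjusted p = 4.93e-04) and Atp6v1g1 from 84.2 ± 3.76 to 96.0 ± 4.66 (adjusted p = 0.00285, and 0.0593 on rescaling). Atp6v1c1, Atp6v1d, Atp6v1e1 and both accessory genes were not called; Atp6v1c1 (log2 change -0.09, adjusted p = 0.0887) was called lower on rescaling, quantile normalization and median-of-ratios scaling (0.00320, 0.0225 and 0.0397).

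**Figure D2:**
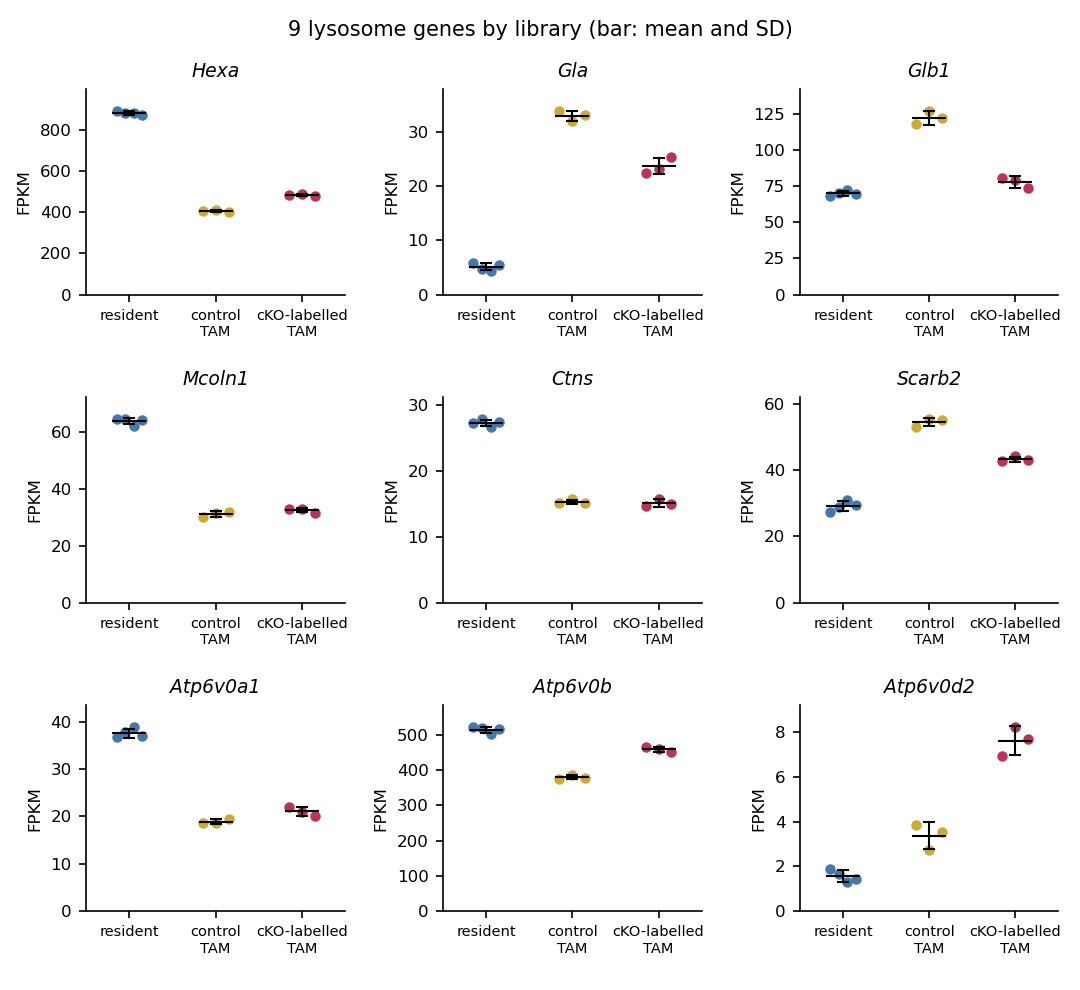
FPKM of 9 genes by library (points) with the mean and SD of each group, for resident (n = 4), control TAM (n = 3) and cKO-labelled TAM (n = 3); each vertical axis starts at 0. Hexa, Mcoln1, Ctns, Atp6v0a1 and Atp6v0b are highest in resident libraries, Gla, Glb1 and Scarb2 in control TAM, and Atp6v0d2 in cKO-labelled TAM, where its libraries lie between 6.92 and 8.22 FPKM.

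The third comparison set cKO-labelled TAM against resident macrophages. Of the 35 members 18 rose, 14 fell and 3 (Lamp2, Npc1 and Atp6ap1) did not pass the test, where 77.4% of all genes passed (40.2% higher, 37.2% lower). At least 1.5-fold, 2 rose (Gla and Atp6v0d2) and 6 fell (33.0% of all genes, 17.8% higher and 15.1% lower). The groups did not overlap for 31 members (75.5% of all genes). The call of Atp6ap2 (log2 change 0.11, adjusted p = 0.0269) was lost without any 1 of resident replicate 2 and cKO-labelled replicates 2 and 3 (0.0752 to 0.133). The 3 comparisons share their libraries pairwise, so the means are given side by side and no agreement between comparisons is tested. The mean of cKO-labelled TAM lay between the means of the other groups for 19 members, on the far side of control TAM for 14 and on the far side of resident for 2. Of the 17 members that rose from resident to control TAM, 10 fell, 3 rose and 4 were not called in cKO-labelled against control TAM. Of the 12 that fell, 3 rose (Hexa, Atp6v0a1 and Atp6v0b), 1 fell (Tpp1) and 8 were not called. Both steps use the control TAM libraries, so these counts are a description. The same counts, and those of the means, were not made over all genes, so they do not set the members apart from other genes.

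Isoforms of 2 V0 subunits were compared within each library, using FPKM. The a subunit is encoded by several genes, and Tcirg1, which encodes the a3 isoform of lysosomes and osteoclasts, is not among the 35. Atp6v0a1 made up 29.9% to 33.6% of the summed FPKM of Atp6v0a1, Atp6v0a2 and Tcirg1 in resident libraries, 12.04% to 13.1% in control and 14.5% to 14.6% in cKO-labelled TAM. Tcirg1 made up 57.6% to 61.7%, 75.2% to 77.0% and 75.4% to 75.8%. Its level rose from 70.6 ± 4.07 FPKM in resident to 115 ± 3.78 in control TAM (log2 change 0.70, adjusted p = 7.99e-10) and was 109.5 ± 4.92 in cKO-labelled TAM (adjusted p against control TAM = 0.275). Of the d subunit genes, Atp6v0d2 made up 1.28% to 1.98%, 2.34% to 3.21% and 4.92% to 5.92%, so Atp6v0d1 was the main one in every library. These shares need no scaling between libraries.

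**Figure D3:**
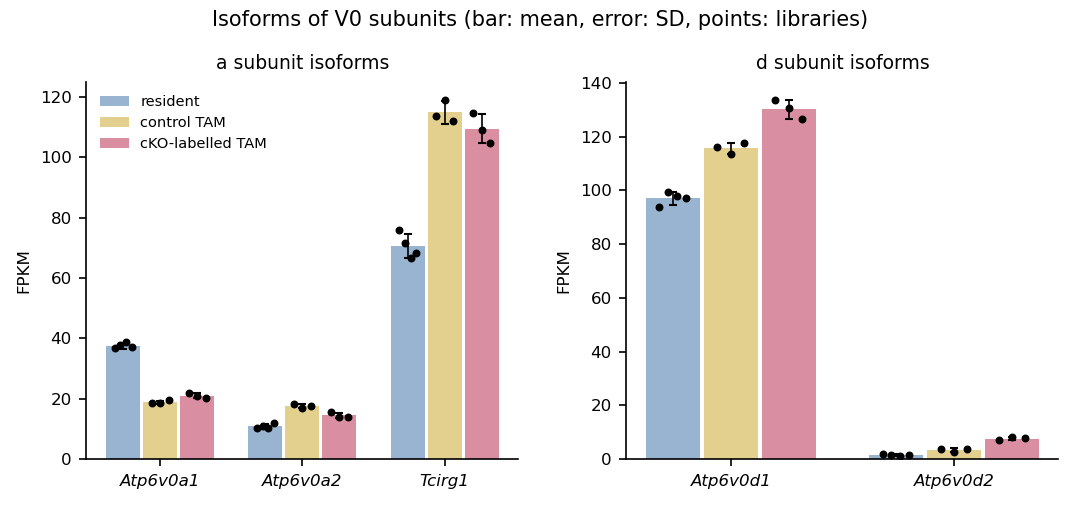
FPKM of genes for the a subunit (left) and the d subunit (right) of the V0 sector, as group means (bars) with SD (error bars) and libraries (points), n = 4 resident, 3 control TAM and 3 cKO-labelled TAM. Tcirg1 is the highest a subunit gene in every group and Atp6v0a1 is highest in resident libraries, while Atp6v0d2 stays far below Atp6v0d1 even in cKO-labelled TAM (7.62 against 130.2 FPKM).

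The other lysosome genes were taken from 5 lists of 81 genes, 73 of them tested. In control TAM against resident macrophages 28 rose and 35 fell (39.0% and 38.1% of all genes), with a median log2 change of -0.09. Of 31 further hydrolases and activators 9 rose and 19 fell. The sulfatase gene Galns rose from 7.998 to 9.37 FPKM in resident to 29.3 to 31.2 in control TAM libraries and Gm2a, the activator that beta-hexosaminidase A needs, from 111 ± 4.09 to 278 ± 2.01, while Hexa fell. The iduronidase gene Idua fell from 32.2 ± 0.925 to 17.1 ± 0.788 and the phospholipase gene Pla2g15 from 147 ± 0.556 to 80.8 ± 0.524. Of 16 further membrane proteins 6 rose and 9 fell, with the chloride transporter gene Clcn7 rising from 34.9 ± 2.502 to 50.6 ± 1.09 FPKM, and Cd63, Abcd4 and Slc29a3 falling. All 4 further V-ATPase genes in the table were called, with Tcirg1, Atp6v0a2 and Atp6v0e risen and Atp6v1g2 fallen. Of the 7 genes that deliver enzymes to the lysosome 5 rose, among them the mannose 6-phosphate receptor gene M6pr (94.2 ± 2.69 and 133 ± 0.706 FPKM), and 2 fell, among them Gnptg (25.3 ± 0.635 and 15.9 ± 0.399). Of the 15 tested relatives of TFEB and genes of nutrient sensing at the lysosome 5 rose and 4 fell. Tfe3 fell from 36.3 ± 1.19 to 20.8 ± 0.513 FPKM and Flcn, a regulator of TFEB and TFE3, from 76.4 ± 3.24 to 39.8 ± 1.76, while Tfec rose from 3.01 ± 0.269 to 9.33 ± 0.479 and Mitf was at 2.05 ± 0.201 and 1.77 ± 0.226 (adjusted p = 0.133).

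In cKO-labelled against control TAM 12 of the 73 rose and 27 fell (20.5% and 19.1% of all genes), with a median log2 change of -0.09. Of the further hydrolases 14 fell and 3 rose. Gm2a fell from 278 ± 2.01 to 203 ± 3.12 FPKM and the arylsulfatase gene Arsa from 27.7 ± 1.123 to 21.1 ± 0.554, whereas Acp5 rose. Of the further membrane proteins 6 fell and 2 rose, with Clcn7 falling to 38.5 ± 0.616 FPKM, the channel gene Tpcn2 from 27.8 ± 1.07 to 20.7 ± 0.267, and Cd63, a tetraspanin, rising from 144 ± 3.45 to 205 ± 3.67. Of the V-ATPase genes Atp6v0a2 fell and Atp6v0e rose. Of the delivery genes 1 rose and 3 fell. Of the TFEB relatives and sensing genes 5 rose, the Ragulator genes Lamtor1 to Lamtor5, and 3 fell (Mitf, Rraga and Flcn, the last from 39.8 ± 1.76 to 32.5 ± 0.661 FPKM).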

How the data were processed

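Sorted mouse macrophages gave 10 RNA-seq libraries. Per the labels' protocols, cDNA was made with SMART-Seq v4 and libraries with NexteraXT, a protocol without strand marking; 8 members share exon sequence with another annotated gene (7 on the opposite strand), and reads of such pairs cannot be separated. The authors deposited FPKM in 1 table with a column for each library. As tools the authors used, the submitters' processing notes list STAR and edgeR without a role, and as builds mm10 and GRCm38. How the authors set gene lengths, scaled libraries and filtered genes is not given in the sources used here. With the longest GENCODE M21 transcript as length, 85.9% to 87.3% of values worth 1 to 200 reads came out whole within 0.05. Of 316 genes without a symbol, 312 were named by identifier.

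Computed here: limma 3.58.1 (R 4.3.3) on log2(FPKM + 1) of the 11127 genes with FPKM 1 or higher in 3 or more libraries, with 3 group means over all 10 libraries, 7 residual degrees of freedom, a variance trend and Benjamini-Hochberg adjustment over all of them at 0.05. Every adjusted p in the text comes from limma. The fit was tested on simulated data. Values are mean ± SD, and ± after a log2 change is its SE. The labels do not say that replicates came from separate animals.

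Members and lists were chosen with earlier results of these data known. All members are accounted for. From each other lysosome list, called genes with the largest changes were named (up to 4 per comparison, a mean of 10 FPKM or more in the higher group, no overlap of groups), of which 1 is not reported here; Lamtor2, Lamtor3, Tfec, Mitf, Atp6v1g2, the osteoclast genes, some genes of the other cell type lists and the printed promoters were picked after their values were seen. Alternatives were pseudocounts of 0.1 and 0.5, no filter, a filter at FPKM 5, 3 other scalings (same total, quantiles, median of ratios), a fit of the 2 groups compared, no trend, a replicate block, each library left out and a 1.5-fold limit.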

Additional observations from a re-analysis of the deposited data

Results flagged for a closer look

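In the resident group, the 35 members were each searched for 1 library far from the other 3, and 3 members had one; chance flags about 1 group in 20. Asah1 stood at 280 FPKM in resident replicate 1, against 312 to 317 in the others. Lamp2 stood at 235 FPKM in the same replicate, against 256 to 260.4. Mcoln1 stood at 62.2 FPKM in resident replicate 3, against 64.3 to 64.6. Without the library in question, the log2 change of control TAM against resident was -0.34 for Asah1, 0.14 for Lamp2 and -1.02 for Mcoln1, each on the same side of the threshold as with it.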

How the results depend on the processing

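Across 20 alternative settings, 24 of the 35 members kept direction and side of the threshold in control TAM against resident, 17 in cKO-labelled against control TAM and 25 in cKO-labelled TAM against resident. With a 1.5-fold limit, 11, 2 and 8 members were called. On rescaling to a common total, 4 members were called higher in cKO-labelled against control TAM, against 8 as deposited. The signs that turned belonged to small changes, and the cause was not tested. In control TAM against resident, rescaling gave 0.14 for Gaa, 0.0731 for Lamp1, 0.1612 for Npc1, 0.19 for Atp6v1b2 and 0.15 for Atp6ap1, and quantile normalization gave -0.0417 for Gusb, -0.0424 for Ppt1, 0.0943 for Lamp1, 0.0025 for Npc1 and -0.0166 for Atp6v1f. In cKO-labelled against control TAM, rescaling gave -0.0645 for Man2b1, -0.0008 for Asah1, -0.0310 for Npc1, -0.0193 for Mcoln1, -0.0687 for Atp6v1e1, -0.0465 for Atp6ap1 and -0.0272 for Atp6ap2. Quantile normalization gave -0.0320 for Man2b1, -0.0324 for Atp6v1e1 and -0.0040 for Atp6ap1, and median-of-ratios scaling -0.0014 for Man2b1 and -0.0059 for Atp6v1e1. In cKO-labelled TAM against resident, rescaling gave 0.0217 for Gusb, 0.10 for Lamp2 and 0.11 for Atp6ap1, quantile normalization 0.0713 for Lamp1 and median-of-ratios scaling -0.0154 for Npc1.

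With each library left out in turn, the members called numbered 27 to 29, 16 to 22 and 31 to 32. Signs turned for Npc1 (-0.0527 to 0.0080) and Atp6v1b2 (-0.0381 to 0.0107) in control TAM against resident, for Man2b1 (-0.0010 to 0.0279), Ctns (-0.0397 to 0.0075) and Atp6v1e1 (-0.0131 to 0.0288) in cKO-labelled against control TAM, and for Lamp2 (-0.0719 to 0.0011) and Npc1 (-0.0174 to 0.0555) in cKO-labelled TAM against resident. Same-numbered libraries correlated at -0.0612 to 0.111 in their deviations from group means (9 pairs, 1 over 0.1). Libraries of different numbers and groups correlated at -0.1523 to 0.1279. With so few libraries per group, these deviations cannot show whether same-numbered libraries were paired. With the replicate number as a block, 28, 19 and 32 members and 8396, 4342 and 8437 of all genes were called. Depth limits Atp6v0d2 most, with about 39 reads in its thinnest library.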
